A study of Homo sapiens with 4 samples.

Results

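The insulin-like growth factor (IGF) binding protein genes IGFBP1, IGFBP2, IGFBP3, IGFBP4, IGFBP5 and IGFBP6, the receptor genes IGF1R and INSR, and the receptor substrate genes IRS1 and IRS2 were followed in MDA-MB-231 cells, an established human breast carcinoma line. They were taken by gene symbol from the authors' deposited sheet, which gave exactly 1 transcript cluster (the set of array probes that stands for 1 gene) for each of the 10 genes, out of 24305 symbols that stood alone on a cluster. Cells grown for 24 hours in DMEM with 10% serum were moved for 3 days to treated or control medium. In treated medium, 1 part of concentrated DMEM was diluted with 9 parts of a hypotonic saline that a BEFE unit (for Bio-Electric Field Enhancement) had treated with its dc DEP EMF over 30 minutes. Control medium held the same saline without the exposure. Both groups therefore shared the line, the hypotonic saline and the concentrated DMEM, and the field was applied to the saline and not to the cells.

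IGF1 and IGF2 are secreted growth factors that signal through the IGF1 receptor, a tyrosine kinase closely related to the insulin receptor. The binding proteins hold these factors in the extracellular fluid and either withhold them from the receptor or deliver them to it, and proteases that cut the binding proteins release the factors again. Inside the cell the activated receptors phosphorylate the substrates IRS1 and IRS2, which recruit PI3 kinase and so lead to AKT, to mTOR and to the FOXO transcription factors.

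For each medium the files held a single column of log2 signal at gene level and another at exon level. Differences are given as treated minus control and, for lack of replicate columns, without error or test. RNA quality was checked on 5 biological replicates in both groups according to the labels, which leave unsaid how these relate to the single columns. Median signal over all probe sets was 6.31 in treated and 6.33 in control medium. A gene counted as measured when its mean over both media reached 7.17, the median of that mean among probe sets that carried 1 symbol. This gave 12353 genes, whose differences had a median of -0.01 and an SD of 0.54. The vimentin, CD44 and keratin 18 genes VIM, CD44 and KRT18, fixed as markers of this line, were measured. The receptor genes ESR1, PGR and ERBB2 and the epithelial cadherin gene CDH1 were fixed as genes absent from this line. Of these, ESR1, PGR and CDH1 lay under that floor. ERBB2 went the other way and was measured, with a log2 signal of 8.41 in treated and 9.05 in control medium. Of 12 markers of leukocytes, endothelium, fibroblasts and hepatocytes that had a cluster, only the collagen gene COL1A1 was above the floor, at 7.27 in treated and 7.43 in control medium. In RNA from a whole culture, fewer cells with a transcript and less transcript per cell cannot be told apart. Signals of different genes come from different probes and are not set against each other.

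The binding protein genes IGFBP1 and IGFBP3 were 2.98-fold and 2.70-fold higher in treated medium, and IGFBP4 was 1.67-fold lower. The 2 substrates lay apart, IRS2 on the higher and IRS1 on the lower side, while the 2 receptors were close to each other in difference, slightly above 0. Of the 10 genes, 8 were measured, and IGFBP2 and IGFBP5 lay under the floor. At least 2-fold higher were 2 of these 8, against 3.22% of all 12353 measured genes, and at least 2-fold lower were 0 of 8, against 3.46%. The median difference of the 8 was 0.22. At a limit of 1.5-fold, 3 were higher and 2 lower, against 9.46% and 9.74% of all measured genes.

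**Figure D1:**
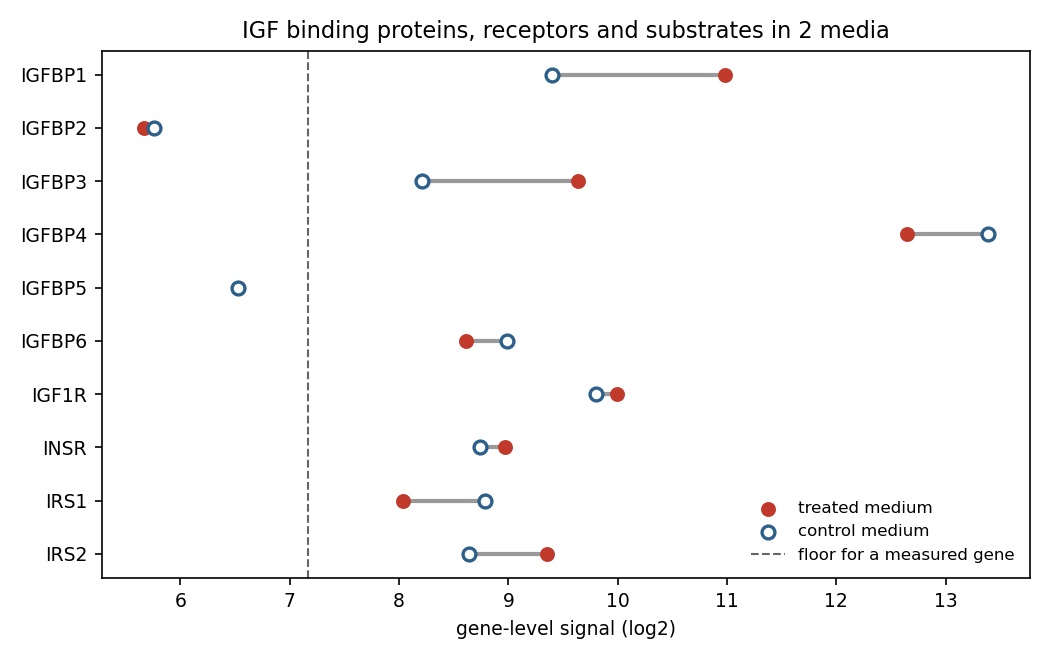
Gene-level signal (log2) of each of the 10 genes in treated medium (filled red) and control medium (open blue), 1 value per medium, with the floor of 7.17 as a dashed line. IGFBP1 and IGFBP3 have their treated values far to the right of control, IGFBP4 and IRS1 to the left, and the points of IGFBP5 coincide at 6.52.

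Promoter sequence is shown for the binding protein genes and substrates that lay on opposite sides of 0, from the RefSeq table of GRCh38.p14. The table matched 9 of the 10 genes; IGFBP1 is named only. Each line gives the 250 bases that end just before the annotated start, 5′ to 3′ on the gene's own strand. Capitals mark the motifs found by a search for TATAAA on the gene's strand and, on both strands, for CAAAACA (core of the insulin response element), GTAAACA (FOXO core), TGATGNAA (a C/EBP-ATF composite) and ACGTG (hypoxia response element core); none of the hits overlap. The windows are chr7:45921273-45921522 (minus strand), chr17:40443200-40443449 (plus strand), chr13:109786584-109786833 (minus strand) and chr2:226799821-226800070 (minus strand).
IGFBP3: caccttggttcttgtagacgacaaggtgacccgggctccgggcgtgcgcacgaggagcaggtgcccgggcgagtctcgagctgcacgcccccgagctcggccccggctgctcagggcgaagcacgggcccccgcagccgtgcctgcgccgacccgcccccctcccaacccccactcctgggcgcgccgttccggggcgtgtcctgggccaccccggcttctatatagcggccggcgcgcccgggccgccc
IGFBP4: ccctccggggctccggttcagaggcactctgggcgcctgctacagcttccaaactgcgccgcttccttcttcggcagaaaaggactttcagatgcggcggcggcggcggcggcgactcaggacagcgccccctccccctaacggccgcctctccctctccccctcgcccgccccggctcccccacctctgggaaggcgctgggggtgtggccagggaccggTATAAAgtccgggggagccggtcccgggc
IRS2: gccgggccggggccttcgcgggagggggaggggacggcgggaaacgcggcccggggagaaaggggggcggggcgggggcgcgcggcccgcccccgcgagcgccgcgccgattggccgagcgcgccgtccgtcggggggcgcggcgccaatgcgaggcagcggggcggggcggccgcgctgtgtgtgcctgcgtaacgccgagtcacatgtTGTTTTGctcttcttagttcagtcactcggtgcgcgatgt
IRS1: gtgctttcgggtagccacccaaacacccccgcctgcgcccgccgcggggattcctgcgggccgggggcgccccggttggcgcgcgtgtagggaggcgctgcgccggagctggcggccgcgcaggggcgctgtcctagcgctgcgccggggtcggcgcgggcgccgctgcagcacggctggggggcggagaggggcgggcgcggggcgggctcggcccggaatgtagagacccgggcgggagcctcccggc

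In IGFBP4 the TATA box lies 29 to 24 bases before the start. In IRS2 the capitals are the reverse strand of CAAAACA, 40 to 34 bases before the start. The windows of IGFBP3 and IRS1 hold none of the 5 motifs as spelled. Variants of the TATA box, such as the letters tatata near the end of the IGFBP3 window, were not searched for. TATAAA occurs in 6.8% of all 35116 promoter windows of this length, CAAAACA in 4.3%, GTAAACA in 2.98%, TGATGNAA in 3.14% and ACGTG in 18.5%. Among the other matched genes IGFBP6 held GTAAACA and IGF1R held ACGTG on the reverse strand, and no window searched for the 9 genes held TGATGNAA; of the 3 windows listed for IGFBP2 only the first was searched. GC content was 76% in IGFBP3, 71.6% in IGFBP4, 76.4% in IRS2 and 80.8% in IRS1, above the upper quartile of 68% over all windows. The receptors were above it too, with 81.2% in IGF1R and 78.4% in INSR. IGFBP6 and IGFBP5, each with 61.2%, and IGFBP2, with 56.8%, were under it. A match is a run of letters and was not tested as a binding site.

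IGFBP1, a binding protein made mainly by liver and known as a gene that insulin represses, had the largest difference of the 10. Its log2 signal was 10.98 in treated and 9.40 in control medium (transcript cluster 17045838), a difference of 1.58, or 2.98-fold higher. That placed it 116th from the top of the 12353 measured genes. Of the hepatocyte markers, ALB was at 6.00 in treated and 6.10 in control medium, and APOA1 and TTR were likewise under the floor in both media.

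IGFBP3, the main carrier of IGFs in blood and a gene of growth arrest and p53 responses, had a log2 signal of 9.64 in treated and 8.21 in control medium (transcript cluster 17057478). The difference was 1.43, or 2.70-fold higher, 156th from the top. In RefSeq IGFBP3 is the next protein-coding gene after IGFBP1 on chromosome 7, so the 2 binding proteins past 2-fold are also genomic neighbours. The gene on the far side of IGFBP3, TNS3, which encodes a focal adhesion protein, had a difference of -0.36, with 8.48 in treated and 8.84 in control medium.

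IGFBP4, which inhibits IGF action until it is cut by the protease PAPPA, had a log2 signal of 12.65 in treated and 13.38 in control medium (transcript cluster 16834091). It was 1.67-fold lower, a difference of -0.74, and 6.51% of measured genes were at least as low. IGFBP6, which prefers IGF2 over IGF1, had 8.61 in treated and 8.99 in control medium, a difference of -0.38 that lies among the lowest 17.9% of measured genes. The 4 measured binding proteins therefore fell on both sides of 0, and the differences of IGFBP1 and IGFBP4 were 2.31 apart on the log2 scale.

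The other binding proteins were under the floor in both media, where the array gives little information on their transcripts. IGFBP2, common in the circulation and in many carcinomas, had a log2 signal of 5.67 in treated and 5.76 in control medium. IGFBP5, known from bone and mammary involution, had the identical value of 6.52 in both. Such exact ties occurred in 857 of 53617 gene-level probe sets (1.6%). IGFBP2 and IGFBP5 are adjacent protein-coding genes on chromosome 2 in RefSeq.

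The receptors differed little between the media. IGF1R, the receptor for IGF1 and IGF2, had a log2 signal of 10.00 in treated and 9.80 in control medium, a difference of 0.20 that 28.6% of measured genes reached or passed. INSR, the insulin receptor, had 8.97 in treated and 8.74 in control medium, a difference of 0.23. Both values lie inside the range from -0.26 to 0.25 that holds the middle of all measured genes between their quartiles.

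The substrates lay on opposite sides of 0 by nearly equal amounts. IRS2, the substrate that dominates in liver and is induced by FOXO factors, had a log2 signal of 9.35 in treated and 8.64 in control medium, and was 1.63-fold higher. IRS1, the substrate best known from muscle, fat and breast carcinoma, had 8.04 in treated and 8.79 in control medium, and was 1.68-fold lower. Neither passed 2-fold by itself. The ratio of IRS2 signal to IRS1 signal was 2.75-fold higher in treated medium, a difference between the genes of 1.46 on the log2 scale. How often pairs of measured genes lie this far apart was not computed. Of all measured genes, 6.59% were at least as high as IRS2 and 6.23% at least as low as IRS1.

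The exon-level table gives several probe sets for each gene. They show whether a difference is shared by the probe sets of a gene, and they are not replicates. For IGFBP1, 5 of its 6 probe sets reached the floor, and their differences lay between 1.54 and 1.88, all past 2-fold. For IGFBP3, 10 of 15 reached the floor and all 10 were above 0, from 0.12 to 1.94, with 7 past 2-fold. Of all 15, 14 were above 0 and 1 was below, at -0.91. Over all genes, 4.66% of the exon-level probe sets that reached the floor passed 2-fold upwards and 4.85% downwards. Probe sets of IGFBP3 thus varied more among themselves, with an SD of 0.56 against 0.14 for IGFBP1; the median of this SD over 11005 measured genes with at least 3 such probe sets was 0.30.

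On the lower side, all 5 probe sets of IGFBP4 were below 0, from -1.03 to -0.39, with 1 past 2-fold. All 4 of IRS1 were below 0, from -1.20 to -0.34, again with 1 past 2-fold. The 7 probe sets of IGFBP6, of which 5 reached the floor, were all below 0 too, with a lowest value of -0.53. IRS2 had 2 probe sets, at 0.58 and 0.71. Each of these 4 genes therefore kept its side of 0 in every one of its probe sets.

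The receptors had more probe sets and a mixed picture. Of 18 IGF1R probe sets at or above the floor, 15 were above 0 and 3 below, from -0.26 to 0.73. Of 22 INSR probe sets at or above the floor, 16 were above 0 and 6 below, and they ranged from -0.81 to 0.85. The probe set of INSR with the lowest difference had a log2 signal of 7.67 in treated and 8.48 in control medium, and the one with the highest had 8.38 in treated and 7.52 in control medium. No exon was named for a probe set here. With probe sets under the floor counted too, IGFBP5 had 4 above and 4 below 0, and IGFBP2 had 5 above and 5 below.

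**Figure D2:**
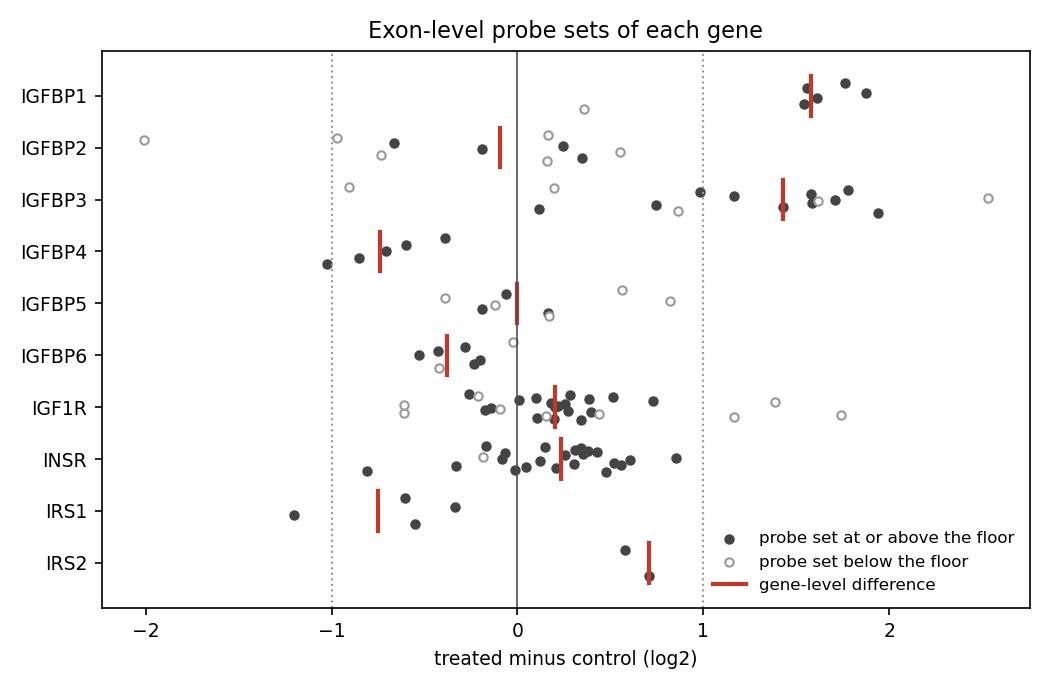
Treated minus control (log2) of each exon-level probe set, filled where its mean signal reached 7.17 and open where it did not, with the gene-level difference as a red bar and 2-fold as dotted lines. The filled points of IGFBP1 cluster between 1.54 and 1.88, those of IGFBP3 spread from 0.12 to 1.94, and those of IGF1R and INSR straddle 0.

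Around these genes, 80 other genes of the pathway were listed by role, with earlier results of these data known. Of these, 78 had a cluster with 1 symbol and 61 were measured. The median difference of the 61 was 0.09. At least 2-fold higher were 8 of 61 (13.1%), against 3.22% of all measured genes, and at least 2-fold lower were 2 of 61 (3.28%), against 3.46%. Among the 8, PAPPA2 and STC2 lay under the floor in control medium, and among the 2, SESN3 did so in treated medium.

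The largest difference among the measured genes listed was that of a protease that cuts binding proteins. PAPPA2, the pappalysin that cuts IGFBP3 and IGFBP5, had a log2 signal of 9.77 in treated and 6.55 in control medium, a difference of 3.22. The control value was under the floor, and treated signal was 6.05-fold above the floor itself. Of its 23 exon-level probe sets, all were above 0 and 21 were past 2-fold. The 17 at or above the floor were all past 2-fold, against 4.66% of such probe sets over all genes. That floor is a mean over both media, so high treated signal helps a probe set reach it. The count of 17 therefore favours higher differences. STC1 and STC2, the stanniocalcins, are secreted inhibitors of the pappalysins. STC1 had 10.39 in treated and 9.01 in control medium, a difference of 1.38. STC2 had 8.28 in treated and 6.97 in control medium, a difference of 1.31, with the control value again under the floor; set against the floor, treated signal was 2.16-fold higher. Its 6 exon-level probe sets at or above the floor were split, with 4 above 0 and 2 below.

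The related protease PAPPA, which cuts IGFBP4, was under the floor with 6.57 in treated and 6.37 in control medium, and was named after its values were seen. HTRA1, a serine protease that also cuts binding proteins, had a difference of -0.17, the lowest of the 5 measured genes of that group. In this group 3 of 5 passed 2-fold upwards and 0 downwards, against 3.22% and 3.46% of all measured genes. Of the 3, PAPPA2 and STC2 were under the floor in control medium, so they counted as measured only through their treated values.

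IGF2R, the receptor that clears IGF2 and carries enzymes to lysosomes, had a log2 signal of 11.12 in treated and 10.26 in control medium, a difference of 0.86. All 46 of its exon-level probe sets were above 0. The ligand gene IGF1, also named after its values were seen, was under the floor, with 5.99 in treated and 5.82 in control medium. IGF2 and INS were not analysed here, as neither stood alone as a symbol on a cluster.

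All 6 measured genes of secreted proteins counted as relatives of the binding proteins were below 0, with a median of -0.56, where 6253 of all 12353 measured genes were below 0. IGFBPL1, an IGFBP-like secreted protein, had 7.51 in treated and 9.04 in control medium, a difference of -1.53, and was the 1 of the 6 past 2-fold, against 3.46% of all measured genes on that side. CTGF and CYR61 (current symbols CCN2 and CCN1), matricellular proteins that respond to YAP, had differences of -0.90 and -0.67, and IGFBP7, which binds IGFs only weakly, had -0.44; these 3 were chosen after their values were seen. KAZALD1 was nearest to 0, at -0.03. Of the measured IGF2 mRNA binding proteins, IGF2BP2 had a difference of 0.41 and IGF2BP3 of -0.01.

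Of 9 measured adaptors and feedback genes, 1 was at least 2-fold higher and 0 lower, again beside 3.22% and 3.46% over all genes. GRB10, an adaptor that binds the insulin and IGF1 receptors and dampens their signal, had 9.24 in treated and 7.80 in control medium, a difference of 1.45. Of its 30 exon-level probe sets at or above the floor, 28 were above 0 and 21 past 2-fold. SH2B1, an adaptor that enhances insulin receptor signalling, was lowest at -0.50.

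Of the 15 PI3 kinase and AKT genes, all measured, TRIB3 was the only one past 2-fold, beside the 3.22% of all measured genes on the higher side. TRIB3, a pseudokinase that binds AKT and is a known target of the stress factor ATF4, had 11.51 in treated and 9.18 in control medium, a difference of 2.34. PIK3R3, a regulatory subunit of PI3 kinase, was lowest at -0.93, with 6.92 in treated medium, under the floor, and 7.84 in control medium. The median of the 15 was -0.02, close to the -0.01 of all measured genes.

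Of the 13 AKT effectors, 10 were above 0, where 6072 of all 12353 measured genes were. Their median was 0.23, and 1 passed 2-fold upwards, against 3.22% of all measured genes. EIF4EBP1, the translation repressor that mTOR inactivates, had 11.82 in treated and 10.77 in control medium, a difference of 1.05. RPS6KB1, the S6 kinase, was lowest at -0.29. FOXO1 itself had a difference of 0.06 and FOXO3 of 0.23; these 2 were named after their values were seen.

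Other genes that FOXO factors are known to induce lay on both sides of 0. Of 10 measured, 6 were above 0 and 4 below, with 2 at least 2-fold higher and 1 lower, beside 3.22% and 3.46% over all genes. Their median was 0.28, against -0.01 for all measured genes. KLHL24, an adaptor of a ubiquitin ligase, had 9.86 in treated and 7.65 in control medium, 4.61-fold higher, and TXNIP, an arrestin-like protein that lowers glucose uptake, had 11.70 in treated and 9.71 in control medium, a difference of 1.99. SESN3, a sestrin, had 6.71 in treated and 7.83 in control medium, a difference of -1.12. The treated value of SESN3 was under the floor, and its control value was 1.58-fold above the floor.

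**Figure D3:**
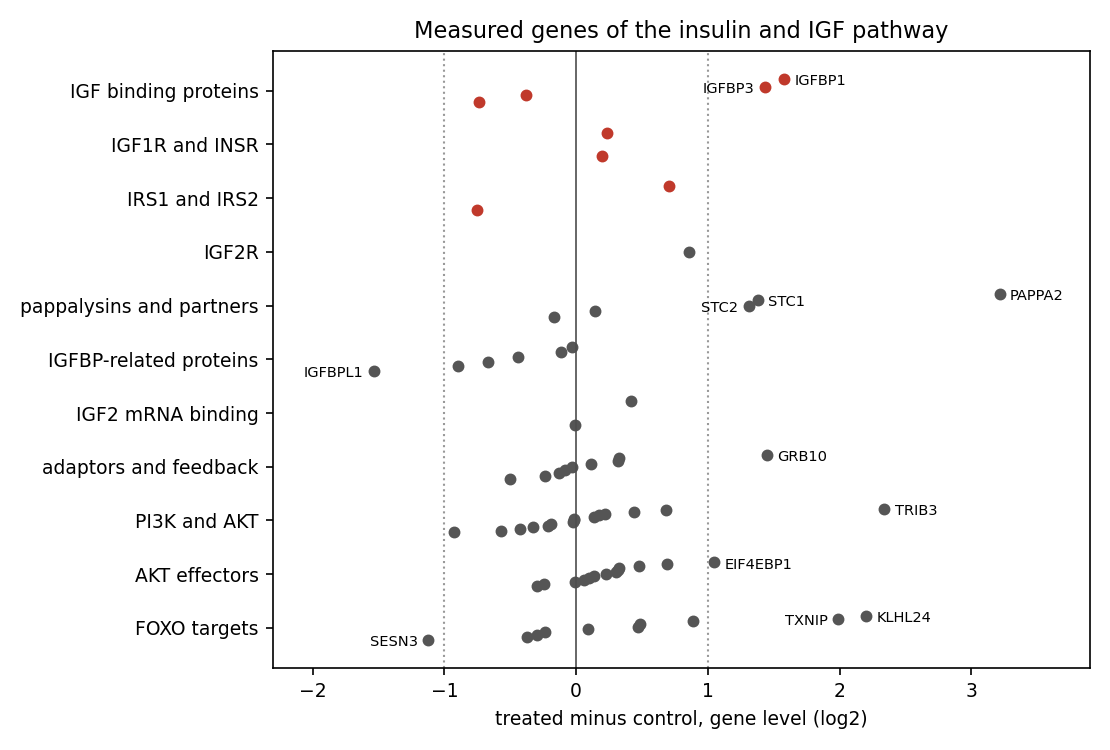
Treated minus control at gene level (log2) for each measured gene, 1 point per gene, in rows by role, with the 8 measured members of the binding protein, receptor and substrate groups in red and 2-fold as dotted lines. PAPPA2 at 3.22 and TRIB3 at 2.34 lie furthest to the right and IGFBPL1 at -1.53 furthest to the left.

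Genes beside the 10 on the chromosome, a comparison added after the first results, lay on both sides of 0. Of 16 neighbouring protein-coding genes in RefSeq outside the group, 9 were measured, with a median of 0.16. Of the 9, 1 was at least 2-fold higher and 1 at least 2-fold lower, against 3.22% and 3.46% of all measured genes. TOP2A, the proliferation-linked topoisomerase that precedes IGFBP4 on chromosome 17, had 11.17 in treated and 12.53 in control medium, a difference of -1.36. TNS4, on the other side of IGFBP4, had -0.72, and ZNF557, beside INSR on chromosome 19, had 0.74. Neither passed 2-fold, and both were named after their values were seen. ARRDC4, an arrestin-domain gene beside IGF1R on chromosome 15, had 9.01 in treated and 7.25 in control medium, a difference of 1.76.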

How the data were processed

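The authors deposited log2 signal for 53617 gene-level and 352859 exon-level probe sets. Per the submitters' processing notes these come from RMA, run in Affymetrix Expression Console; no version or genome build was given. RMA equalises the distributions of the columns and hides any shift common to most genes. The sheet the authors deposited adds symbols, intensity values (the antilog of the log2 values within 5.03e-05) and their ratio, control over treated.

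The cluster with the highest mean stood for a symbol with several. Exon-level probe sets were assigned to the gene-level cluster whose number they follow. Over 26802 clusters with at least 3 of them, their median difference correlated at 0.964 with that of their own cluster and at 0.0419 with that of the next, across clusters, which are not replicates. In 21.7% of these clusters both differences agreed within 0.001, so the exon level was treated as a second summary of the same measurement and never as a replicate. The number of arrays limits the precision.

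All 10 members are named. Other pathway genes are named when at least 2-fold different or when highest or lowest among the measured genes of their list, and the text marks others as named after their values were seen. Members and lists were chosen with earlier results of these data known. Counting was tested on simulated data, with differences planted only in genes well above the floor. That checks the counting steps and not the counts near the floor. Python 3.11.15, pandas 2.3.3, numpy 2.4.6 and statsmodels 0.14.6 were used. The alternatives were 3 scalings, 3 other floors, the mean over clusters, exon-level medians and a limit of 1.5-fold.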

Additional observations from a re-analysis of the deposited data

How the results depend on the processing

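No paired analysis was possible because each medium had 1 column per level. A gene's own difference could be moved by the 3 scalings and the exon-level median, but not by a floor, nor by the mean over clusters, as each member had 1 cluster. Under those 4, IGFBP1 and IGFBP3 were at least 2-fold higher, with differences from 1.59 to 1.61 and from 1.43 to 1.47, and IGFBP4, IGFBP6, IGF1R, INSR, IRS1 and IRS2 kept their sign where a value was given. IRS2, with 2 exon-level probe sets, had no exon-level median. With exon-level medians, 10 of 61 other pathway genes were at least 2-fold higher instead of 8, and 2 were lower. Of all genes in that setting, 3.22% were higher and 3.49% lower. The additions were the FOXO targets BCL6 and KLF15, with medians of 1.03 and 1.13, against gene-level differences of 0.89 and 0.49. Both were named after their values were seen. With a floor at the 75th percentile (8.93), 4 of the 10 genes and 34 other pathway genes were left, and IGFBP3 fell just under it. Then 1 member was at least 2-fold higher and 0 lower, and the other pathway genes had 4 higher and 0 lower. Of all genes above that floor, 3.14% were at least 2-fold higher and 4.25% lower. The median difference of the members was 0.45 with that floor and 0.10 without a floor. At a limit of 1.5-fold, 3 members and 12 other pathway genes were higher, and 2 members and 5 other pathway genes were lower. Of all measured genes, 9.46% were higher and 9.74% lower at that limit. The changes with the floors and with the limit follow from how many genes each setting leaves or counts. Leaving out IGFBP1 or IGFBP3, chosen after seeing the data, left a median of 0.20. With no replicate columns, no difference of any size could be set against variation between cultures.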
